A study of Homo sapiens with 8 samples.

Results

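The HOX cluster genes were described across UHRF1-deficient colorectal cancer cells. They are the genes whose symbol is HOX followed by a cluster letter from A to D and a number, and 39 of the 60649 gene identifiers in the expression tables match this rule. The HOXA cluster has 11 of them, the HOXB cluster 10, and the HOXC and HOXD clusters 9 each. The number of a HOX gene is its paralogue group, from 1 at one end of a cluster to 13 at the other, and groups 1 to 4 are called anterior here, 5 to 8 central and 9 to 13 posterior.

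HOX genes encode homeodomain transcription factors that give cells along the head-to-tail axis of the embryo their regional identity. Genes of a cluster are switched on in the order in which they lie on the chromosome, the anterior ones first, and adult tissues such as the gut keep part of the pattern of their embryonic position. Polycomb complexes hold the clusters silent where they are not used, trithorax complexes and retinoic acid act in the opposite direction, and HOX clusters are rich in CpG islands that gain DNA methylation in many cancers. UHRF1 brings the maintenance methyltransferase DNMT1 to newly replicated DNA, so that cells depleted of it lose DNA methylation as they divide. DNA methylation was not analysed here.

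PolyA RNA was sequenced from the human colorectal cancer line HCT116 and from UF1hypo, a clone of HCT116 in which CRISPR-Cas9 and Cre removed an exon of one UHRF1 allele (UHRF1+/-). Both lines received a lentiviral hairpin, either the control shScr or shUHRF1, which targets UHRF1, and puromycin-resistant pools made up 4 groups of 2 libraries. All 8 libraries therefore carry a hairpin vector and puromycin selection. UF1hypo is a single clone, so the effect of the genotype and of the clone cannot be told apart, and which harvest day after infection applies to these libraries is not given in the sources used here. Nothing says whether the 2 libraries of a group came from separate cultures, so p-values measure the spread between these libraries, which may be technical.

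HCT116 libraries had UHRF1 levels of 87.5 and 98.4 TPM (transcripts scaled to 1000000 per library) with shScr and 31.7 and 32.7 TPM with shUHRF1, and UF1hypo libraries had 47.3 and 50.6 TPM with shScr and 34.1 and 21.1 TPM with shUHRF1. Both shUHRF1 groups lay below their controls, at a log2 fold change of -1.50 ± 0.22 in HCT116 (adjusted p = 0.0565) and of -0.84 ± 0.22 in UF1hypo (adjusted p = 0.0406), neither of them past both thresholds used below. The libraries held 5.42 to 7.84 gigabases of aligned sequence, and since the tables give no counts of reads, the counting error behind a TPM is unknown. Of 8 colorectal epithelial markers, 5 were above 1 TPM in every library (EPCAM, CDH1, KRT8, KRT18 and KRT19). The others, CDH17, VIL1 and LGALS4, were below 1 TPM in every library. Every marker of leukocytes and endothelium was below 1 TPM, and so were 4 of the 5 fibroblast markers, with LUM listed at 0 in all libraries. COL1A1, the other fibroblast marker, was at 22.5 and 28.5 TPM in UF1hypo shScr and 65.5 and 37.7 TPM in UF1hypo shUHRF1, and its part in the results on this group was not tested. The replicates of UF1hypo shUHRF1 correlated less well across genes (Pearson's r = 0.956) than those of the other groups (0.991 to 0.992), and the difference between them followed the GC content of the gene (Spearman's rho = 0.799), as it did in the UF1hypo shScr group at -0.499 and hardly in the HCT116 groups at -0.0419 and -0.0669. Results on UF1hypo shUHRF1 are given below with and without each library where a call depends on it.

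HCT116 and UF1hypo cells transcribed chiefly the HOXA and HOXB clusters. In all, 23 members were above 1 TPM in every library and 7 were above 10 TPM in every library. The other extreme was 10 members that never passed 1 TPM (at most 0.936), of which HOXB1 was listed at 0 in all 8 libraries. In HCT116 shScr the summed level of the HOXA cluster was 184 ± 2.56 TPM (SD, n = 2) and that of the HOXB cluster 187 ± 3.10 TPM, against 32.1 ± 0.495 TPM for HOXC and 6.11 ± 1.24 TPM for HOXD. The HOXA and HOXB sums thus made up 44.9% and 45.7% of all HOX transcripts in that group.

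**Figure D1:**
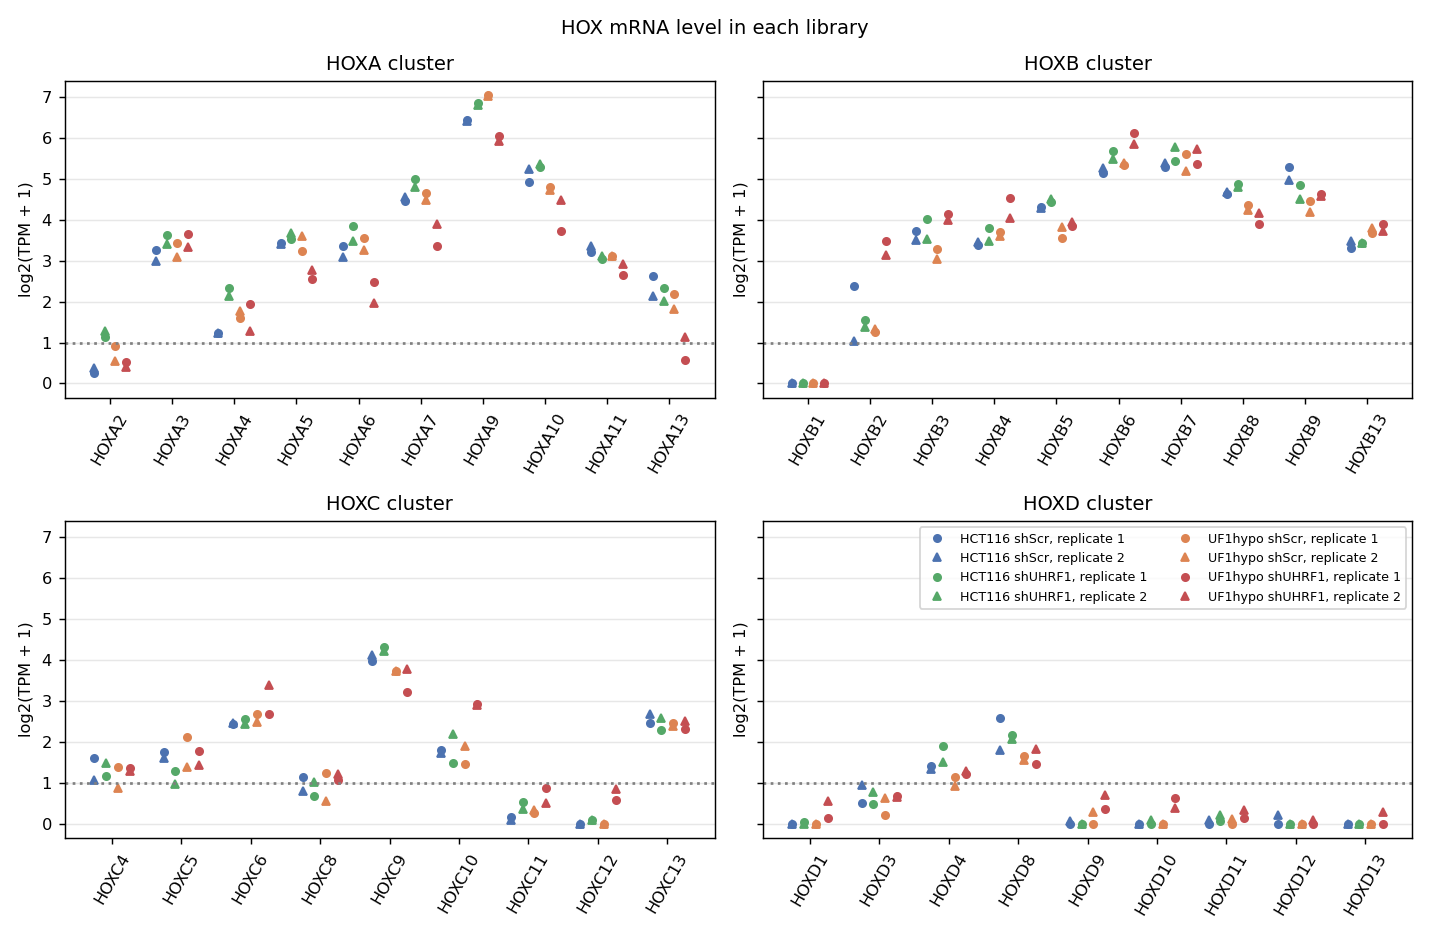
Level of the HOX genes described here as log2(TPM + 1), by cluster and paralogue number, with one point for each of the 8 libraries (colour, group; circle, replicate 1; triangle, replicate 2; dotted line, 1 TPM). HOXA9 is the highest of the HOXA genes in every library, HOXB1 lies at 0, and the HOXD genes other than HOXD4 and HOXD8 stay below the dotted line.

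Within a cluster the level followed no single gradient. HOXA9, a posterior gene that maintains blood progenitors and is known as a leukaemia gene, had the highest mean of all members in 3 of the groups, at 85.6 ± 0.86 TPM and 113 ± 2.93 TPM in HCT116 with shScr and shUHRF1 and 131 ± 0.557 TPM in UF1hypo with shScr. In UF1hypo shUHRF1 its mean was 62.4 ± 3.75 TPM and that of HOXB6, a central gene of the trunk, was 62.9 ± 8.71 TPM, values that do not differ beyond their spread. HOXB7, which neighbours HOXB6, came next in the first 3 groups at 39.8 ± 1.83, 48.1 ± 8.12 and 42.0 ± 8.83 TPM, against 36.2 ± 2.38, 47.4 ± 4.53 and 40.2 ± 1.13 TPM for HOXB6. In HCT116 shScr both HOXB7 libraries were above both HOXB6 libraries, and in the other 2 of these groups the libraries of the genes overlapped. The most posterior genes HOXA13 and HOXB13, which act in the hindgut, urogenital tract and prostate, were lower, at 4.27 ± 1.22 and 9.54 ± 0.909 TPM in HCT116 shScr.

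In the HOXC cluster, which patterns the trunk and skin, HOXC9 was the highest member, with 14.7 and 16.3 TPM (shScr) and 18.9 and 17.6 TPM (shUHRF1) in HCT116, and with 12.3 TPM in both shScr libraries and 8.31 and 12.7 TPM in the shUHRF1 libraries of UF1hypo. HOXC6, a gene of the thoracic region, had a lower mean than HOXC9 in every group, with 4.43 and 4.49 TPM (shScr) and 4.88 and 4.41 TPM (shUHRF1) in HCT116, and 5.46 and 4.56 TPM (shScr) and 5.37 and 9.55 TPM (shUHRF1) in UF1hypo. The shUHRF1 libraries of each line overlapped their controls for HOXC6 in both lines and for HOXC9 in UF1hypo. HOXC13, which controls hair and nail keratins, varied little among the groups, from 4.31 ± 0.499 to 4.95 ± 0.683 TPM. Group means of the anterior and central genes HOXC4, HOXC5 and HOXC8 lay between 0.802 and 2.47 TPM, and HOXC11 and HOXC12 stayed below 1 TPM in all 8 libraries.

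The HOXD cluster, best known for the patterning of limbs and digits, was nearly silent, and only HOXD8 and HOXD4 passed 1 TPM. The central gene HOXD8 was at 4.94 and 2.48 TPM (shScr) and 3.46 and 3.23 TPM (shUHRF1) in HCT116, and at 2.14 and 1.93 TPM (shScr) and 1.74 and 2.55 TPM (shUHRF1) in UF1hypo. The anterior gene HOXD4 was at 1.64 and 1.54 TPM (shScr) and 2.75 and 1.85 TPM (shUHRF1) in HCT116, and at 1.2 and 0.897 TPM (shScr) and 1.30 and 1.44 TPM (shUHRF1) in UF1hypo. Neither gene was called in any contrast. The posterior genes HOXD9 to HOXD13 summed to 0.135 ± 0.191 TPM (shScr) and 0.133 ± 0.123 TPM (shUHRF1) in HCT116, and to 0.145 ± 0.204 TPM (shScr) and 1.2 ± 0.392 TPM (shUHRF1) in UF1hypo. Neither these genes nor HOXD1 and HOXD3 were tested for a change, because none passed 1 TPM in a library.

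The question of the knockdown contrasts was how the HOX genes respond when UHRF1 is depleted further, in cells that have both alleles intact and in cells that lack one. All tests are from limma on log2(TPM + 1) in a single fit of all libraries, and adjusted p is the Benjamini-Hochberg value over all protein-coding genes tested. Genes with a TPM above 1 in any library of a contrast were tested, and a call needed an adjusted p below 0.05 and a log2 fold change beyond 1 in either direction. A log2 fold change here is a difference of mean log2(TPM + 1), which understates the change of genes with a low level, and ± after it is the standard error. In these bulk libraries fewer cells that express a gene and less RNA per cell cannot be told apart.

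In UF1hypo cells with the UHRF1 hairpin, the called members were central and posterior HOXA genes, which were lower, and a gene at the anterior end of HOXB and a HOXC gene, which were higher. Of 28 members tested, 3 were called lower (HOXA6, HOXA9 and HOXA13) and 2 higher (HOXB2 and HOXC10). With the 4 libraries of the contrast alone 1 was called lower and 1 higher, and with FPKM 2 lower and 1 higher. Over all 13620 genes tested, 1.14% were called lower and 7.39% higher. Without either of the UF1hypo shScr libraries 1 member was called lower and 0 higher, and without UF1hypo shUHRF1 replicate 1 there were 2 lower and 1 higher. Without UF1hypo shUHRF1 replicate 2 the log2 fold changes of HOXA6 (-0.94) and HOXA9 (-0.996) fell inside the fold threshold, so neither was called there. Counted by the adjusted p alone, 5 members were lower and 4 higher, against 2.86% and 10.4% of all genes. The median log2 fold change was 0.11 over the members and 0.04 over all genes tested, and by cluster it was -0.71 over 10 HOXA genes, 0.29 over 9 HOXB genes, 0.19 over 7 HOXC genes and 0.13 over 2 HOXD genes.

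**Figure D2:**
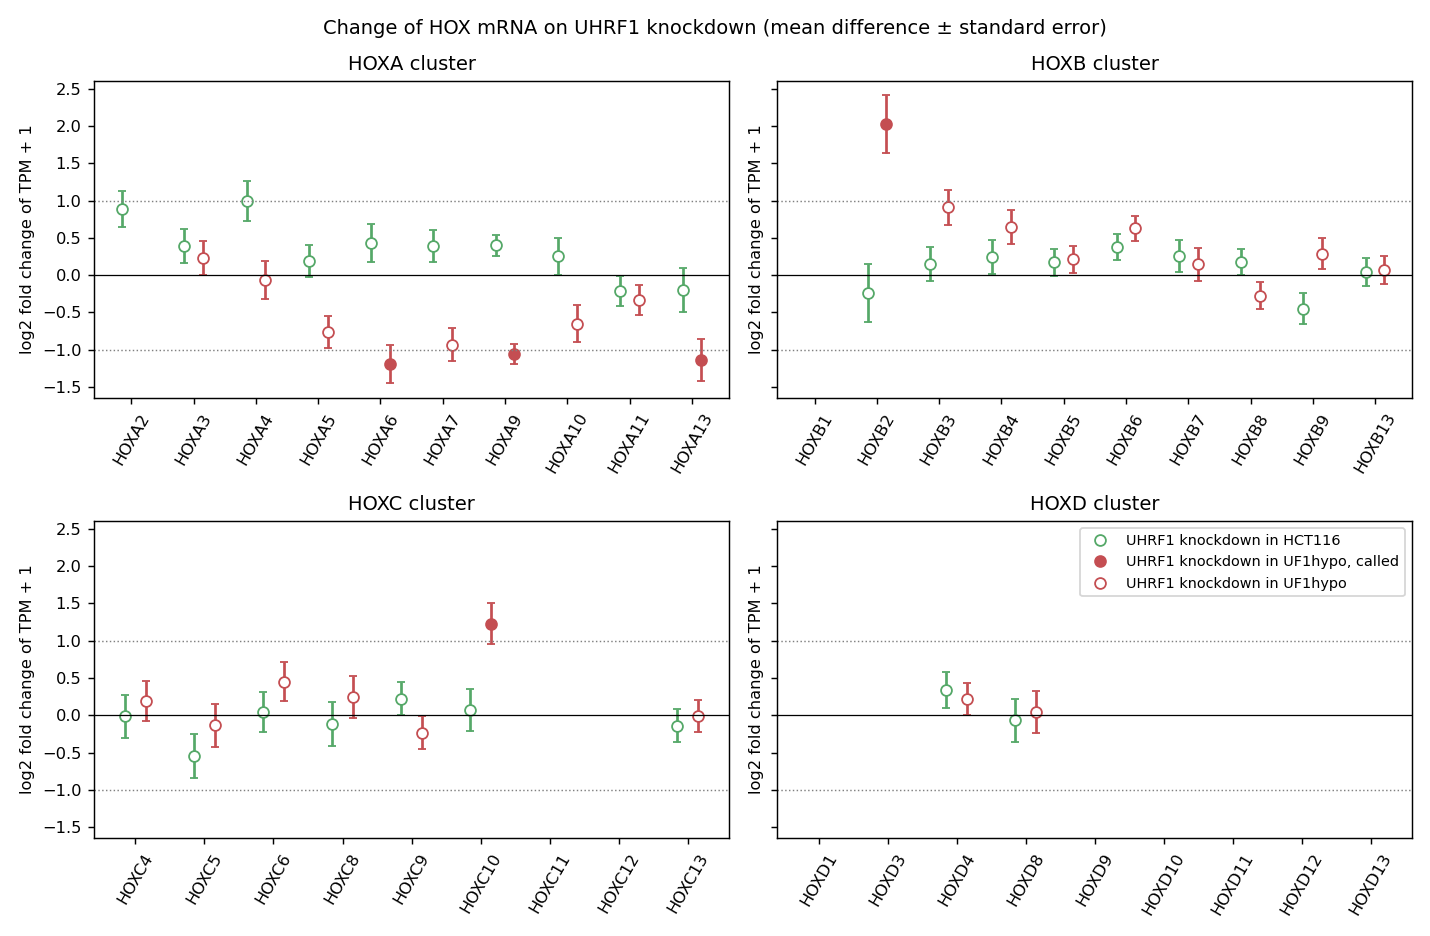
Change of the tested HOX genes described here on UHRF1 knockdown in HCT116 (green) and in UF1hypo (red), as the log2 fold change of TPM + 1 with its standard error, by cluster and paralogue number. Filled points are called and dotted lines mark a log2 fold change of 1 in either direction. The 7 genes from HOXA5 to HOXA13 all lie below 0 in UF1hypo, and HOXB2 is the highest point at 2.02.

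HOXA9 was at 131 and 130.4 TPM in UF1hypo shScr and at 65.1 and 59.8 TPM in UF1hypo shUHRF1, and its HCT116 libraries were at 86.2 and 85.0 TPM with shScr and 115 and 111 TPM with shUHRF1. The UF1hypo shUHRF1 libraries were the lowest of all 8 and the UF1hypo shScr libraries the highest, and no groups overlapped. The log2 fold change in UF1hypo was -1.06 ± 0.13 (adjusted p = 0.00159). Without UF1hypo shUHRF1 replicate 2 it was -0.996, just inside the fold threshold, at an adjusted p of 0.000741.

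HOXA6, a central gene of the trunk with a role in the axial skeleton, was at 10.9 and 8.68 TPM in UF1hypo shScr and 4.60 and 2.92 TPM in UF1hypo shUHRF1, and its HCT116 libraries were at 9.35 and 7.57 TPM with shScr and 13.4 and 10.2 TPM with shUHRF1. Both UF1hypo shUHRF1 libraries lay below all others. It fell by 1.19 ± 0.26 on the log2 scale in UF1hypo (adjusted p = 0.0181). The call rested on several libraries, since the adjusted p was 0.157 without UF1hypo shScr replicate 1 and 0.0643 without UF1hypo shScr replicate 2, and the log2 fold change was -0.94 without UF1hypo shUHRF1 replicate 2.

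HOXA13, the most posterior HOXA gene, which patterns the limb tip and the hindgut, was at 3.52 and 2.56 TPM in UF1hypo shScr and 0.499 and 1.22 TPM in UF1hypo shUHRF1. In the HCT116 libraries it was at 5.13 and 3.41 TPM with shScr and 4.07 and 3.05 TPM with shUHRF1, so that UF1hypo shUHRF1 alone fell outside the range of the other groups. Its log2 fold change in UF1hypo was -1.14 ± 0.28 (adjusted p = 0.0333). The call was lost in 7 of 17 alternative settings, with the replicate block among them. The adjusted p was 0.226 without UF1hypo shScr replicate 1, 0.0886 without UF1hypo shScr replicate 2 and 0.0834 without UF1hypo shUHRF1 replicate 1.

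The genes called lower have neighbours that did not pass the test. From HOXA5 to HOXA13, a stretch of 59.0 kb (chr7:27141052-27200091, GRCh38), both UF1hypo shUHRF1 libraries lay below both UF1hypo shScr libraries for 7 of 7 genes, with a median log2 fold change of -0.93; 18.3% of all genes tested were lower without overlap in this way and 30.6% higher. This stretch was chosen after its values were seen. HOXA5, a regulator of lung development, went from 8.51 and 11.2 to 4.90 and 5.85 TPM (-0.76 ± 0.21, adjusted p = 0.0471), and HOXA7, a trunk gene, from 24.3 and 21.4 to 9.36 and 14.0 TPM (-0.93 ± 0.22, adjusted p = 0.0269), both past the p threshold but not the fold threshold. HOXA10 and HOXA11, which act in the reproductive tract, did not pass the test, with 26.9 and 25.4 against 12.3 and 21.4 TPM (-0.65 ± 0.25, adjusted p = 0.135) and 7.63 and 7.74 against 5.25 and 6.57 TPM (-0.34 ± 0.20, adjusted p = 0.316).

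Anterior HOXA genes were not called. HOXA3, needed for the thymus and parathyroid glands, had overlapping libraries (9.88 and 7.59 against 11.7 and 9.10 TPM), and so had HOXA4 (2.02 and 2.40 against 2.86 and 1.45 TPM). HOXA2, which patterns the neural crest of the head, was not tested in UF1hypo because all 4 libraries were below 1 TPM.

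The sequences upstream of the 3 HOXA genes that fell are shown because UHRF1 acts on CG dinucleotides, the bases that carry DNA methylation. They are the 250 bases before the RefSeq start of each gene (GRCh38.p14, minus strand, 5′ to 3′), with CG in capitals, a motif that reads the same on both strands. RefSeq entries matched 20 of the 39 members, in 26 distinct windows, 1 of them shared by HOXC4 and HOXC5. The windows lie at chr7:27147775-27148024 for HOXA6, chr7:27165538-27165787 for HOXA9 and chr7:27200092-27200341 for HOXA13.
HOXA6: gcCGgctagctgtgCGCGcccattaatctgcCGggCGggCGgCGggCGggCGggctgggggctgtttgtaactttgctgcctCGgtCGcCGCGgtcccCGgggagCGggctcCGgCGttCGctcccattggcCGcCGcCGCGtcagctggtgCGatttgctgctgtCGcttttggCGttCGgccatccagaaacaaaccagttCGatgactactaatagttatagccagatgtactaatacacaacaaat
HOXA9: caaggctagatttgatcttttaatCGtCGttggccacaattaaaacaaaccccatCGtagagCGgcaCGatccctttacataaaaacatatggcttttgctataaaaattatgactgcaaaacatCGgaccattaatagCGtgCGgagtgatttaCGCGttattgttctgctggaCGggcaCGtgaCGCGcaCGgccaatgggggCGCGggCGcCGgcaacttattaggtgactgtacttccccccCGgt
HOXA13: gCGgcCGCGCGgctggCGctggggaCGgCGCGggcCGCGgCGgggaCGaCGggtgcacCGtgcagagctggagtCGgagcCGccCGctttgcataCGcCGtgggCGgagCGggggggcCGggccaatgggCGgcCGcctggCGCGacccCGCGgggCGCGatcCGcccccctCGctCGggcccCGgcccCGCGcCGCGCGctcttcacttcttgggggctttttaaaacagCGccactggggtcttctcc
The HOXA13 window holds 40 CG, a number that 2.17% of the 34943 promoter windows of the same length reach, the HOXA6 window 27 (17.7% hold as many) and the HOXA9 window 20 (32.4%). The median was 19.5 over the members' windows, which ranged from 0 to 40, and 11 over all windows, of which 93.9% hold at least 1 CG. The 3 windows thus lay above both medians, that of HOXA9 barely above the median of the members. This median counts each window of a gene, and HOXA3 has several, holding from 0 to 26 CG. HOXA3 and HOXA4, which were not called, each have a window of 26 CG, more than HOXA9. HOXA5, HOXB2 and HOXC10 had no entry.

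**Figure D3:**
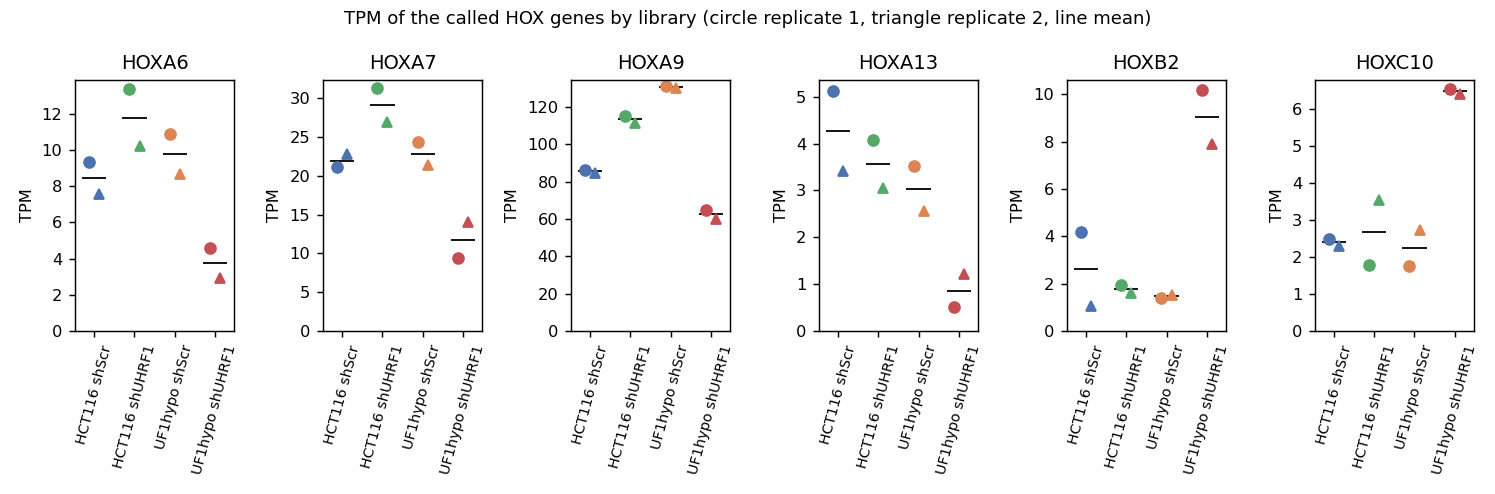
TPM in each library of the 6 HOX genes called in at least 1 contrast (circle, replicate 1; triangle, replicate 2; line, group mean; each axis starts at 0). HOXA6, HOXA7, HOXA9 and HOXA13 are lowest in UF1hypo shUHRF1, while HOXB2 and HOXC10 are highest there.

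HOXB2, an anterior gene that specifies hindbrain segments, had the largest change of any member. It was at 1.38 and 1.53 TPM in UF1hypo shScr and at 10.2 and 7.90 TPM in UF1hypo shUHRF1, while the HCT116 libraries were at 4.19 and 1.07 TPM with shScr and 1.93 and 1.62 TPM with shUHRF1. The UF1hypo shUHRF1 libraries were above all others, and HCT116 shScr replicate 1 stood apart from replicate 2 of its group. The log2 fold change in UF1hypo was 2.02 ± 0.39 (adjusted p = 0.0106), and the adjusted p was 0.0725 without UF1hypo shScr replicate 1 and 0.0556 without UF1hypo shScr replicate 2.

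The neighbours of HOXB2 at the anterior end of the cluster were higher too, without being called. HOXB3, which acts in the hindbrain and thyroid, went from 8.80 and 7.30 TPM to 16.8 and 15.1 TPM (0.91 ± 0.23, adjusted p = 0.0351). HOXB4, known for the expansion of blood stem cells, was at 12.0 and 11.1 TPM in UF1hypo shScr and 22.4 and 15.5 TPM in UF1hypo shUHRF1 (0.65 ± 0.23, adjusted p = 0.104). For all 3 genes from HOXB2 to HOXB4 the libraries did not overlap, as for the 30.6% of all genes tested that were higher in this way, and these genes were chosen after their values were seen.

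Of the central and posterior HOXB genes, none was called in UF1hypo. HOXB6 was at 39.4 and 41.0 TPM in UF1hypo shScr and 69.1 and 56.8 TPM in UF1hypo shUHRF1 (0.63 ± 0.17, adjusted p = 0.0433), and in HCT116 at 34.6 and 37.9 TPM with shScr and 50.6 and 44.2 TPM with shUHRF1. Its shUHRF1 libraries were above their controls in both lines. HOXB7 was at 48.2 and 35.7 TPM (shScr) and 40.1 and 52.7 TPM (shUHRF1) in UF1hypo, where the groups overlapped, and at 38.6 and 41.1 TPM (shScr) and 42.4 and 53.8 TPM (shUHRF1) in HCT116. The shUHRF1 libraries of HOXB5 (10.8 and 13.2 against 13.5 and 14.5 TPM) and HOXB9 (21.2 and 17.2 against 24.1 and 23.0 TPM) were above their controls in UF1hypo, at 0.21 ± 0.18 (adjusted p = 0.496) and 0.29 ± 0.21 (adjusted p = 0.414). HOXB8, a further trunk gene, was lower without overlap (19.6 and 17.9 against 13.9 and 16.9 TPM, -0.27 ± 0.18, adjusted p = 0.356), and HOXB13 overlapped (11.8 and 12.9 against 13.9 and 12.2 TPM).

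HOXC10, which specifies motor neurons of the hindlimb, was the other member called higher. It was at 1.75 and 2.71 TPM in UF1hypo shScr, 6.55 and 6.42 TPM in UF1hypo shUHRF1, and its HCT116 libraries were at 2.48 and 2.30 TPM with shScr and 1.77 and 3.55 TPM with shUHRF1. Both UF1hypo shUHRF1 libraries lay above all others. The log2 fold change was 1.23 ± 0.28 (adjusted p = 0.0226), and the adjusted p was 0.182 without UF1hypo shScr replicate 1, 0.0541 without UF1hypo shScr replicate 2 and 0.0515 without UF1hypo shUHRF1 replicate 1.

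In HCT116 cells with both UHRF1 alleles, no member was called on knockdown. By limma 0 of 29 members tested were called, against 0.0708% of 12704 genes, and 4 members had an unadjusted p below 0.05 (among them HOXA2, HOXA4 and HOXA9), against 6.38% of all genes. The libraries of 16 members were higher without overlap and those of 3 lower, against 20.1% and 29.3% of all genes. HOXA2 is counted among both the 4 and the 16. It passed the filter only through its shUHRF1 libraries, where it is high, so its p and its order are no evidence of a change. The median log2 fold change was 0.18 over the members and -0.03 over all genes.

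Members of the HOXA cluster accounted for 9 of these 16. HOXA4 was at 1.34 and 1.37 TPM in HCT116 shScr and 4.01 and 3.39 TPM in HCT116 shUHRF1 (0.99 ± 0.27, adjusted p = 0.335), and HOXA2 at 0.200 and 0.298 TPM against 1.18 and 1.44 TPM (0.89 ± 0.25, adjusted p = 0.359). HOXA9 differed by 0.40 ± 0.14 (adjusted p = 0.543). None of these differences passed the test, and the groups did not overlap for any of them. HOXA2 entered the test only through its shUHRF1 libraries, since both shScr libraries were below 1 TPM. HOXA10 was at 29.5 and 36.7 TPM with shScr and 38.0 and 40.7 TPM with shUHRF1, and HOXB9, a posterior trunk gene, at 38.4 and 30.6 TPM against 28.2 and 21.9 TPM, which with HOXA11 and HOXC5 made up the 3 members that were lower without overlap.

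The knockdown effects in the lines were compared directly, as the difference between the effect in UF1hypo and the effect in HCT116. Of 29 members tested, 3 were called lower (HOXA6, HOXA7 and HOXA9) and 0 higher by limma, against 0.559% and 4.54% of 13781 genes. The number called lower was 5 without UF1hypo shUHRF1 replicate 1, 6 without UF1hypo shUHRF1 replicate 2 and 1 without any one of the other 6 libraries. An unadjusted p below 0.05 was found for 12 members, against 18.5% of all genes. For 8 members the shUHRF1 libraries lay on one side of both controls in HCT116 and on the other in UF1hypo, against 10.2% of all genes. HOXA2 is counted among both the 12 and the 8, though it passed the filter only through the HCT116 shUHRF1 libraries, where it is high. The estimate was negative for 10 of 11 HOXA genes, with a median of -0.95, and positive for 7 of 9 HOXB genes, with a median of 0.25.

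For HOXA9 the difference between the effects was -1.46 ± 0.19 (adjusted p = 0.00470), and the gene was called in all 19 alternative settings, with an adjusted p of 0.00128 to 0.0469. HOXA6 gave -1.63 ± 0.36 (adjusted p = 0.0412) and HOXA7 -1.32 ± 0.31 (adjusted p = 0.0484). In HCT116 the HOXA7 libraries were at 21.1 and 22.8 TPM with shScr and 31.3 and 26.9 TPM with shUHRF1, the opposite order to UF1hypo. Leaving out any one of the HCT116 libraries or the UF1hypo shScr libraries took the call of HOXA6 (adjusted p from 0.104 to 0.186) and of HOXA7 (from 0.144 to 0.221). Over all 19 settings HOXA6 lost its call in 9 and HOXA7 in 12. HOXA13, at -0.94 ± 0.40 with an adjusted p of 0.260, HOXB2, at 2.27 ± 0.54 with an adjusted p of 0.0529, and HOXC10, at 1.16 ± 0.39 with an adjusted p of 0.151, did not pass, so the changes of these genes in UF1hypo were not shown to differ from those in HCT116. HOXB2 stayed uncalled in 15 of 19 alternative settings and was called in the others, with FPKM and the GC and length correction among them.

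**Figure D4:**
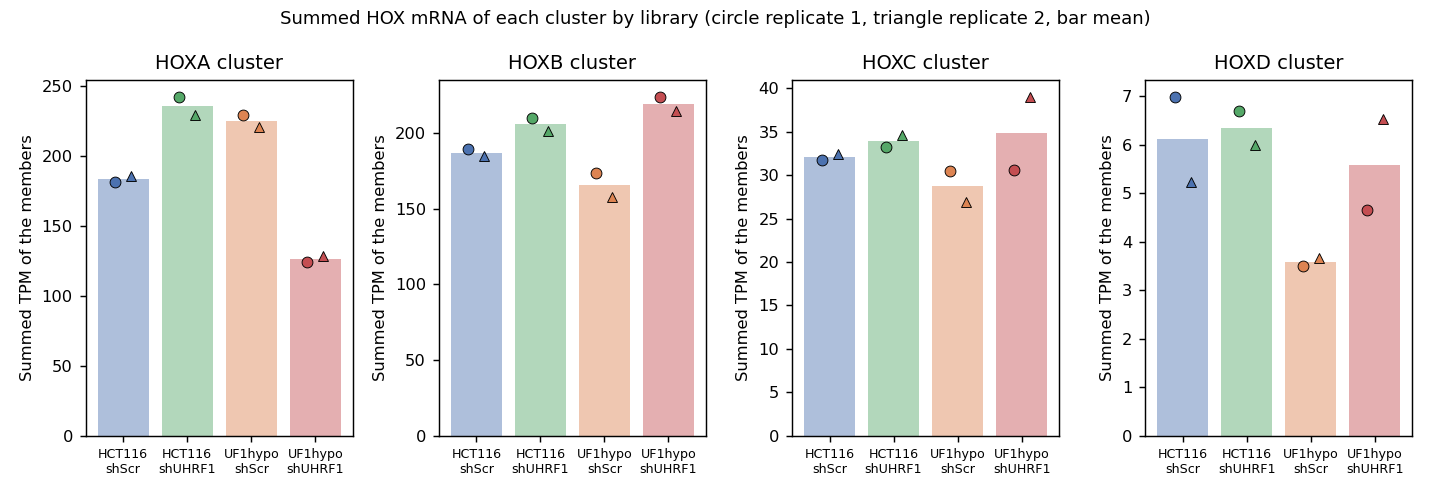
Summed TPM of the members of each HOX cluster by group (bar, mean of 2 libraries; circle, replicate 1; triangle, replicate 2; each axis starts at 0). The HOXA sum is lowest in UF1hypo shUHRF1 at 126 TPM, while the HOXB sum is highest there at 219 TPM.

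Summed by cluster, HOXA transcripts were at 182 and 185 TPM (shScr) and 242 and 229 TPM (shUHRF1) in HCT116, and at 229 and 221 TPM (shScr) and 124 and 128 TPM (shUHRF1) in UF1hypo. HOXB transcripts were at 189 and 185 TPM (shScr) and 210.0 and 201 TPM (shUHRF1) in HCT116, and at 173 and 158 TPM (shScr) and 224 and 215 TPM (shUHRF1) in UF1hypo. In UF1hypo the HOXA sum was thus lower and the HOXB sum higher with shUHRF1, and the HOXA share of all HOX transcripts was 53.2% with shScr and 32.7% with shUHRF1, while the HOXB share was 39.2% and 56.8%. The total over all members was 423 ± 19.3 TPM and 386 ± 3.37 TPM. HOXA9 weighs heavily in the HOXA sum, at 45.8% to 59.1% of it, but without HOXA9 the sum was still 97.9 and 90.3 TPM with shScr and 59.3 and 68.4 TPM with shUHRF1.

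By position, the HOXA sum of UF1hypo was lower with shUHRF1 in the central and posterior groups, while the anterior sum was not lower. The central HOXA genes summed to 42.5 ± 1.73 TPM in UF1hypo shScr and 20.8 ± 2.79 TPM in UF1hypo shUHRF1, and the posterior ones to 168 ± 2.19 and 86.1 ± 4.11 TPM. In the HOXB cluster the anterior genes summed to 21.1 ± 1.58 and 43.9 ± 7.72 TPM, the central ones to 113 ± 7.24 and 139 ± 3.10 TPM, and the posterior ones to 31.6 ± 2.06 and 36.6 ± 1.99 TPM. These sums were not tested.

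Between the lines with the control hairpin, no member was called in UF1hypo shScr against HCT116 shScr. By limma 0 of 28 members tested were called, against 3.54% of 12856 genes, and 3 had an unadjusted p below 0.05, against 18.2% of all genes. HOXA9 was higher in the clone by 0.61 ± 0.14 (adjusted p = 0.0456), under the fold threshold. HOXB9 was at 21.2 and 17.2 TPM in UF1hypo shScr, below both HCT116 shScr libraries, with a log2 fold change of -0.81 ± 0.21 (adjusted p = 0.0635), and HOXB5, a gene of the lung and gut, was at 18.8 and 18.6 TPM in HCT116 shScr and 10.8 and 13.2 TPM in UF1hypo shScr (-0.61 ± 0.18, adjusted p = 0.109). This contrast shares its libraries with the knockdown contrasts as their controls.

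Reads of neighbouring HOX genes are hard to separate, because 33 members overlap another gene in the annotation, 22 of them another member and 25 a gene on the other strand. HOXA3 spans HOXA4, HOXA5 and HOXA6, HOXA9 overlaps HOXA10, and HOXB3 overlaps HOXB4, HOXB5 and HOXB6. Whether counting used the strand is not given in the sources used here, so the levels of these overlapping genes are uncertain where StringTie could split their reads. HOXA7 (chr7:27153716-27157936), HOXA13 (chr7:27193503-27200091) and HOXB2 (chr17:48540894-48545109) overlap no other member. Each of them overlaps 1 gene on the other strand, so their levels are uncertain too if counting ignored the strand.

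The noncoding RNAs of the clusters were tested in a fit of all annotated genes, since protein-coding genes alone entered the fit above. Of 19 listed, 18 were in the tables and 12 were tested in UF1hypo. By limma 0 were called, against 7.32% higher and 0.92% lower of 18796 genes, and 2 had an unadjusted p below 0.05. HOXA10-AS, antisense to HOXA10, was at 33.1 and 35.3 TPM in UF1hypo shScr and 22.4 and 23.5 TPM in UF1hypo shUHRF1 (-0.55 ± 0.18, adjusted p = 0.0936), without overlap. HOTAIRM1, transcribed at the anterior end of the HOXA cluster, was at 10.3 and 12.8 TPM against 12.5 and 19.9 TPM (0.43 ± 0.29, adjusted p = 0.380).

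The Polycomb and trithorax regulators of HOX genes gave no calls on knockdown. Of 30 Polycomb genes tested, 0 were called by limma on knockdown in UF1hypo, with 2 at an unadjusted p below 0.05 and a median log2 fold change of -0.05. Over all genes tested in UF1hypo, 7.39% were called higher and 1.14% lower, and 27.4% had an unadjusted p below 0.05. Of 13 trithorax group and related genes 0 were called, with 5 at an unadjusted p below 0.05, to be read against the same 27.4%. KMT2C, a histone methyltransferase of this group, was at 11.2 and 9.06 TPM in UF1hypo shScr and 16.9 and 24.3 TPM in UF1hypo shUHRF1 (0.94 ± 0.23, adjusted p = 0.0311), short of the fold threshold, and was chosen for mention after its values were seen. In HCT116, 0 Polycomb and 0 trithorax genes were called, with 1 and 0 at an unadjusted p below 0.05.

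Of 7 HOX cofactors tested, which bind DNA together with HOX proteins, 0 were called in either knockdown, with 1 at an unadjusted p below 0.05 in HCT116 and 3 in UF1hypo, against 6.38% and 27.4% of all genes.

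Of 13 genes of the retinoic acid pathway tested in UF1hypo, CYP26A1 alone was called, and 9 had an unadjusted p below 0.05, against 27.4% of all genes. This enzyme degrades retinoic acid, and it was at 0.220 and 0.810 TPM in UF1hypo shScr and at 5.98 and 6.88 TPM in UF1hypo shUHRF1, while all HCT116 libraries were below 1 TPM. CYP26A1 passed the filter of 1 TPM only through the UF1hypo shUHRF1 libraries, where it is high, so its fold change (2.32 ± 0.27) and the difference of the effects (2.39 ± 0.39) are given as values. CYP26A1 is counted among the 9, and so is CRABP1, which entered the test in the same way, so the 9 overstate the share. Some other genes of the pathway lay in the opposite direction, past the p threshold but not the fold threshold, and were picked after their values were seen. They were DHRS3, a retinal reductase, from 82.9 and 92.8 TPM to 52.0 and 44.6 TPM (-0.85 ± 0.15, adjusted p = 0.00832), CRABP2, which binds retinoic acid (-0.64 ± 0.15, adjusted p = 0.0297), and the receptor RARG (-0.58 ± 0.16, adjusted p = 0.0473). In the direction of CYP26A1, but short of the p threshold, lay STRA6, from 6.56 and 4.65 TPM to 17.1 and 9.48 TPM (1.08 ± 0.32, adjusted p = 0.0601). ALDH1A2 (0.83 ± 0.30, adjusted p = 0.114) and RXRA (0.47 ± 0.17, adjusted p = 0.107) did so too. The median log2 fold change of the list was -0.10, against 0.04 over all genes. CRABP1, a further binding protein, had 0 TPM listed with shScr and 1.61 and 0.514 TPM with shUHRF1 in UF1hypo, and it passed the filter only through the first of these. Among 16 neighbours of the clusters tested, 7 had an unadjusted p below 0.05, against 27.4% of all genes. PRAC2, which lies beside HOXB13, was the only one called, while 7.39% of all genes were called higher. PRAC2 was at 0 and 0.0446 TPM with shScr and at 1.61 and 3.04 TPM with shUHRF1, and it too passed the filter only through the shUHRF1 libraries. PRAC1, at 0 TPM in both shScr libraries and 0.515 and 1.83 TPM with shUHRF1, passed in the same way. TTLL6 passed only through the shScr libraries, where it is high (1.89 and 1.27 against 0.471 and 0.893 TPM). PRAC1, PRAC2 and TTLL6 are all counted among the 7. The UF1hypo libraries of HOXB13 itself overlapped, as given above. The listed neighbours of the HOXA cluster that were tested, HIBADH and SKAP2, were not called. HIBADH was at 32.7 and 31.2 against 15.4 and 28.1 TPM (-0.59 ± 0.25, adjusted p = 0.173). SKAP2 overlapped, at 21.7 and 15.7 against 5.71 and 16.3 TPM (-0.85 ± 0.39, adjusted p = 0.201). The median log2 fold change of the neighbours was -0.19, against 0.04 over all genes. Of 8 ParaHox and EVX genes only 2 passed the filter and 0 were called by limma, with 0 at an unadjusted p below 0.05.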

How the data were processed

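RNA-seq of 8 libraries in 4 groups of 2 was analysed from gene abundance tables. The authors used Fastp for trimming, HISAT2 2.0.4 for alignment to GRCh38 and StringTie 2.1.4 for gene abundances. As deposited, coverage is the mean per-base read coverage of a gene, and its ratio to FPKM gave the aligned bases of a library. The FPKM values of the authors are scaled by gene length and aligned bases, and the deposited TPM values by gene length to a total of 1000000 per library.

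Of 60649 gene identifiers, 60463 matched GENCODE version 44, of which the 19942 protein-coding genes entered the fit after a filter on TPM. log2(TPM + 1) entered a single limma 3.58.1 fit (R 4.3.3) with the groups as its only terms, trended moderated variances and 4 residual degrees of freedom. The contrasts were the knockdown in each line, the difference of both effects, and the shScr libraries of UF1hypo against those of HCT116. The fit was tested on simulated data. DESeq2, which the authors used, needs read counts and was not run. Tables were made with Python 3.11.15, numpy 2.4.6 and pandas 2.3.3.

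The members and lists were chosen with earlier results of these data known. Values in every library are given for each member called in a contrast and for the 2 highest members of each cluster, and for others that a result turns on. From the surrounding lists, called genes are named, and a few genes are not reported here. Alternatives were another pseudocount, other filters and gene sets, the contrast's libraries alone, FPKM, other scalings, untrended variances, the largest record of an identifier, a replicate block and each library left out. A correction within 10 bins each of GC content and transcript length, and a crossed replicate block, were chosen after seeing the data.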

Additional observations from a re-analysis of the deposited data

Results flagged for a closer look

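Of the tested differences between the knockdown effects in UF1hypo and HCT116, those of HOXA6 (-1.63 on the log2 scale), HOXA7 (-1.32) and HOXA9 (-1.46) passed the test of the difference itself. A further 5 members stood out because both shUHRF1 libraries lay on one side of both controls in HCT116 and on the other side in UF1hypo, an order that, with the 3 above, 8 of 29 members and 10.2% of all 13781 genes had. Among these the difference was -1.14 for HOXA2, -0.95 for HOXA5, -0.90 for HOXA10, -0.45 for HOXB8 and 0.73 for HOXB9, and none of them passed the test (adjusted p = 0.0716, 0.120, 0.221, 0.399 and 0.223, limma). HOXA2 stayed below 1 TPM in all 4 UF1hypo libraries. It passed the filter only through the HCT116 shUHRF1 libraries, where it is high, so its order and its p are no evidence of a change. Groups of 2 libraries were too small for a search for outlying samples.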

How the results depend on the processing

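Across the settings tried, 112 counts of called members stayed within 1.5 times the reported count and 24 moved, and of the fold changes of named members 432 kept direction and side of the threshold, 40 lost the threshold, 8 gained it and 4 reversed. Of the levels, 63 stayed within the SD between replicates and 21 moved by more, all of them with FPKM or the median-ratio scaling. In UF1hypo, the members called higher on knockdown numbered 2, but 1 with the 4 libraries of the contrast alone and 1 with FPKM, and from 0 to 3 with 1 library left out. Those called lower numbered 3, but 1 with the 4 libraries alone and from 1 to 3 with 1 library left out. For the difference between the lines, members called higher numbered 0, but 1 with FPKM, 1 with the GC and length correction, and 0 to 1 with 1 library left out. Members called lower there numbered 3, but 1 with a pseudocount of 0.1, 1 with all annotated genes, 6 with the GC and length correction, and from 1 to 6 with 1 library left out. In UF1hypo shScr against HCT116 shScr, 1 member was called lower with the GC and length correction. The cause of these shifts was not tested.

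The reversals came from leaving out 1 library in HCT116, where no member had been called. The log2 fold change of HOXA13 (-0.20) ranged from -0.44 to 0.039 over the leave-outs, and was positive without shScr replicate 1. That of HOXB2 (-0.24) ranged from -0.91 to 0.42 and was positive without shScr replicate 1. That of HOXB3 (0.15) ranged from -0.10 to 0.40 and was negative without shUHRF1 replicate 1. That of HOXC10 (0.07) ranged from -0.29 to 0.42 and was negative without shUHRF1 replicate 2. Same-numbered libraries did not deviate together, since the correlation of their deviations across 13781 genes was 0.05 in HCT116 and -0.40 in UF1hypo. In UF1hypo the replicate differences followed GC content with opposite signs in the shScr and shUHRF1 groups (-0.499 and 0.799). The correlation therefore cannot show whether the libraries were prepared in pairs. With the replicate block, 2 members were called higher and 2 lower in UF1hypo and 2 lower for the difference, with HOXA13 at an adjusted p of 0.0520 in UF1hypo and HOXA7 at 0.0928 for the difference. With the crossed pairing, chosen after seeing the data, 2 were called higher and 3 lower in UF1hypo. Without read counts, the depth behind members near 1 TPM is unknown.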

Other observations

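CRABP2, which carries retinoic acid within cells, was higher in UF1hypo shScr (614 and 648 TPM) than in HCT116 shScr (244 and 286 TPM), at a log2 fold change of 1.25 ± 0.16 (adjusted p = 0.00290). STRA6, the receptor for retinol uptake, was at 6.56 and 4.65 TPM in UF1hypo shScr and 0.462 and 0.169 TPM in HCT116 shScr. STRA6 passed the filter of 1 TPM in this contrast only through the UF1hypo libraries, so its fold change (2.32 ± 0.32) is given as a value. The keratins KRT8, KRT18 and KRT19 of the epithelial markers were called higher in the same contrast, at 1.16, 1.14 and 1.02, and CDH1, the epithelial cadherin, was called in the difference between the knockdown effects at 1.14 ± 0.21 (adjusted p = 0.0195). The other 4 epithelial markers tested were not called there (EPCAM -0.28, KRT8 -0.22, KRT18 -0.09 and KRT19 0.21), and the median of the list was -0.09. The part of these genes in the HOX values was not tested.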
